A study of Mus musculus with 4 samples.

Results

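Smarca4 and the genes of the core subunits that exist as alternative paralogues in BAF, the chromatin remodeller also known as mammalian SWI/SNF, were followed in mouse embryonic stem (ES) cells with a G784E change in Smarca4. The 10 genes, chosen by name, were Smarca4, Smarcc1, Smarcc2, Smarcd1, Smarcd2, Smarcd3, Actl6a, Actl6b, Ss18 and Ss18l1, and all 10 were found among the 24428 genes of the count tables. The study compared 2 G784E libraries with 2 wild-type (WT) libraries of poly(dT)-captured RNA. The G784E cells were heterozygous, with a G784E Smarca4 fused to the V5 tag beside a wild-type Smarca4 fused to GFP. The WT cells carried the same GFP fusion beside a wild-type Smarca4-V5. All were of strain 129SvEv, were grown in serum with LIF and received no treatment. The labels do not say whether the 2 libraries of a group came from separate cultures or clones, so p-values measure the spread between libraries, which may be technical. Reads of the GFP and V5 fusions cannot be told apart in the Smarca4 counts.

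BAF complexes use the energy of ATP hydrolysis to move or evict nucleosomes. Each complex is built around a single ATPase, either Smarca4 (Brg1) or Smarca2 (Brm). It holds a scaffold of Smarcc proteins, a Smarcd adaptor and an actin-related protein of the Actl6 pair. Some forms of the complex, though not all, also hold Ss18 or its paralogue Ss18l1 (Crest). The form in ES cells, called esBAF, is known for Smarca4, Smarcc1, Smarcd1, Actl6a and Ss18. Complexes of mature neurons contain Actl6b and Ss18l1 and more Smarcc2, and Smarcd3 is known from heart and skeletal muscle and from neurons.

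The changed residue lies in motif I of the ATPase domain, the loop that binds ATP. The codon named by the change reads as glycine in the 3 of 4 annotated coding transcripts of Smarca4 with a complete start, all of which place it in exon 16, at bases 21660783 to 21660785 of chromosome 9 (GRCm38, plus strand). The stretch around it (chr9:21660747-21660821) is shown to locate the change beside the matching stretch of the alternative ATPase gene Smarca2 (chr19:26676673-26676747, plus strand). Capitals mark the changed codon of Smarca4 and its counterpart in Smarca2, codon 765.
Smarca4: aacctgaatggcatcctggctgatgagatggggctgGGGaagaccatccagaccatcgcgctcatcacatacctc
Smarca2: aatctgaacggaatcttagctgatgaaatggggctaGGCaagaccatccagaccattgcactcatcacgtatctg
The 2 stretches differ at 13 of 75 bases, and all 25 codons encode the same amino acids. The counts per gene do not show which base was changed in the G784E cells.

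Counts over all genes came to 6226145 and 8895433 in G784E, against 7027108 and 10083442 in WT. Levels are given in CPM, which are counts relative to the library size after TMM scaling, and 3 counts corresponded to 0.298 to 0.482 unscaled CPM. All 18 ES cell markers were detected, with summed levels of 5181 and 5240 CPM in G784E and 4367 and 5022 CPM in WT. The 18 primitive endoderm markers summed to 796 and 795 CPM in G784E, against 6549 and 6883 CPM in WT. Of the 16 tested members, 13 were lower in G784E at an adjusted p under 0.05 in edgeR, beside 298 of all 15763 tested genes. The 14 neuron markers summed to 457 and 498 CPM in G784E and to 267 and 291 CPM in WT. The 12 heart muscle markers summed to 57.9 and 26.5 CPM in G784E and to 48.1 and 41.4 CPM in WT. No marker of these 4 lists was at 0 in every library. The part of these other cell types in the values below was not tested. In bulk RNA, fewer cells of a type and less RNA per cell cannot be told apart.

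None of the 10 genes passed edgeR's quasi-likelihood test of G784E against WT. The threshold, 0.05 after Benjamini-Hochberg adjustment, was passed by 2.56% of the 15763 tested genes. At an unadjusted p under 0.05, 2 of the 10 were below the threshold, Smarca4 and Smarcd1, both higher in G784E, beside 11.6% of all tested genes. DESeq2, which gave no adjusted p to Smarcd3 and Actl6b, called 1 of the 10, Smarca4. It called 2.89% of the 12401 genes with an adjusted p. Limma-voom also called Smarca4 alone of the 10, beside 3.49% of all tested genes. The libraries of the groups did not overlap for 3 of the 10 (Smarca4, Smarcc1 and Smarcd1), beside 38.8% of all tested genes. The median log2 fold change of G784E over WT was -0.04 over the 10 genes and -0.0016 over all tested genes. All 10 passed the filter on low counts.

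**Figure D1:**
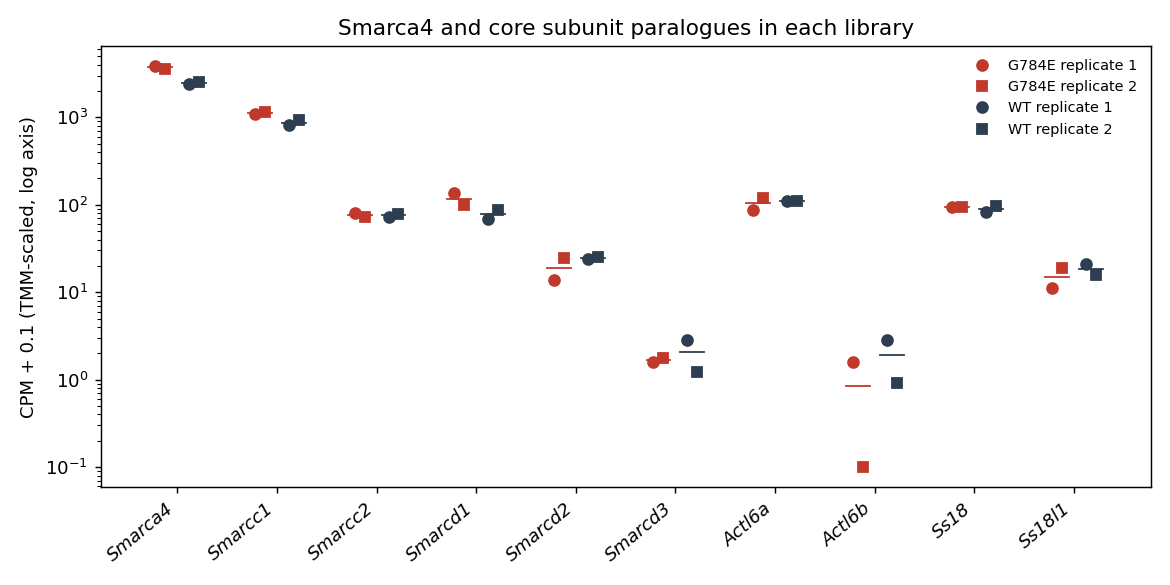
Level of each gene in each library, in TMM-scaled CPM with 0.1 added, on a log axis. Circles are replicate 1, squares replicate 2 and short lines group means. The groups separate for Smarca4, Smarcc1 and Smarcd1, and Actl6b had no count in replicate 2 of G784E.

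Smarca4, the ATPase gene that carries the change, had 23642 and 30394 counts in the G784E libraries, or 3868 and 3580 CPM. The WT libraries had 18350 and 25145 counts, or 2423 and 2553 CPM. Both G784E libraries lay above both WT libraries. The fold of G784E over WT was 1.50, with a 95% interval of 1.15 to 1.95 (log2 fold change 0.58, SE 0.19; edgeR, adjusted p = 0.119). The log2 difference was 0.67 between the libraries numbered 1 and 0.49 between those numbered 2. The call depended on the tool, the scaling and the use of a replicate block. Upper-quartile scaling brought the edgeR value of Smarca4 past the threshold (adjusted p = 0.0108), DESeq2 gave an adjusted p of 0.00873 and limma-voom one of 0.03. The log2 fold changes were 0.59, 0.58 and 0.58. Over the alternatives without a replicate block, the adjusted p ran from 0.00873 to 0.764, and the highest came from edgeR with no filter on low counts. With a replicate block, edgeR gave Smarca4 an adjusted p of 1.59e-05, but 2 pairs do not show that the numbers mark a shared culture.

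Per kb of exon, Smarca4 stood far above the other genes of the set in every library. Its level was 597 and 553 CPM per kb in G784E and 374 and 394 CPM per kb in WT, where a gene's length is the union of its annotated exons. The labels do not say how the GFP and V5 fusions were made, so this is the level of all Smarca4 reads and may not be that of the unmodified gene. Smarcc1, the next highest of the set, reached 139 and 145 CPM per kb in G784E and 103 and 119 CPM per kb in WT. Smarca4 was thus 4.31 and 3.80 times as high as Smarcc1 per kb in the G784E libraries and 3.62 and 3.33 times as high in the WT libraries. On coding length the same ratio was smaller, at 2.43 and 2.15 in G784E and 2.05 and 1.88 in WT. Smarcb1 and Smarce1 encode core subunits without a paralogue, and they lay much lower. Smarcb1 had 7.04 and 6.74 CPM per kb in G784E and 4.98 and 5.88 CPM per kb in WT. Smarce1 had 7.11 and 6.29 CPM per kb in G784E and 4.05 and 5.04 CPM per kb in WT. Smarca4 stood 84.9 and 82.0 times above Smarcb1 in G784E and 75.2 and 67.1 times in WT. This gap depended strongly on the length used, and on coding length it was 16.5 and 15.9 times in G784E and 14.6 and 13.0 times in WT.

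**Figure D2:**
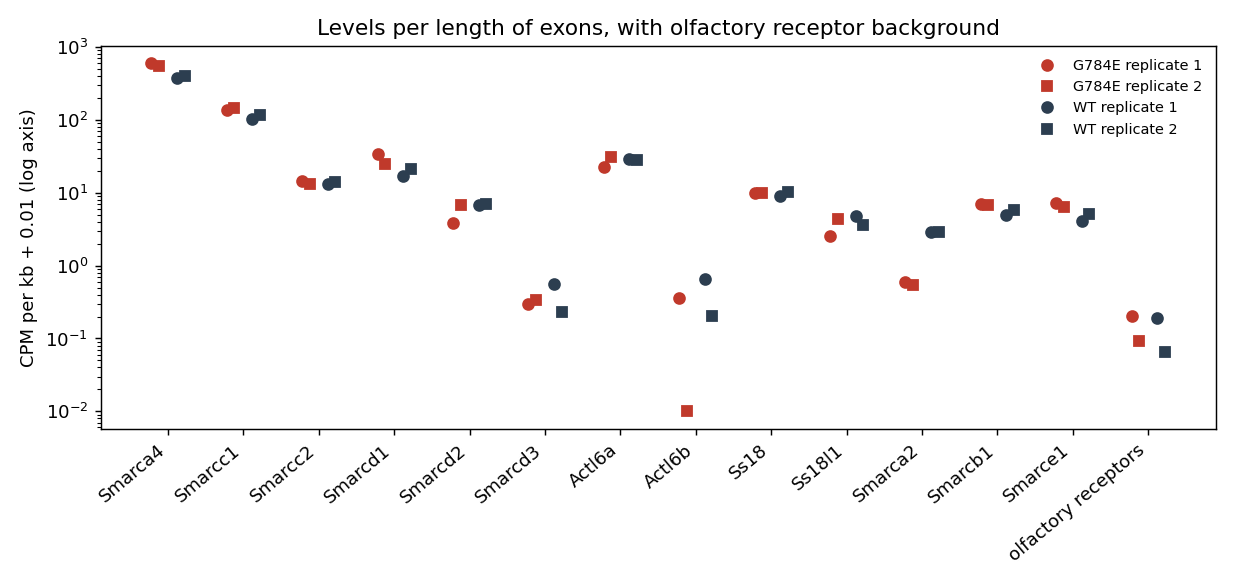
Levels per kb of exon (CPM per kb with 0.01 added, log axis) of the 10 genes, of Smarca2, Smarcb1 and Smarce1, and the mean over 1114 olfactory receptor genes as background. Each point is 1 library. Smarca4 and Smarcc1 are highest, and of the 10 genes Smarcd3 and Actl6b lie closest to the background.

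The genes whose levels followed the pattern of Smarca4 most closely over the 4 libraries were Abcf2, Mapk14, Brd3, Nop2 and Ung. They had the smallest distances from it in centred log2 CPM among 3633 genes with a mean of at least 50 CPM, from 0.0458 for Abcf2 to 0.0727 for Ung, against a median of 0.615. Brd3, a BET bromodomain gene, stood at 316 and 286 CPM in G784E and 196 and 216 CPM in WT. None of the 5 passed edgeR's test (adjusted p of 0.12 to 0.252). Among the other core genes, Smarcc1 was nearest to Smarca4, at a distance of 0.269, followed by Smarcd1 at 0.308. These distances ranked only 605 and 860 among the tested genes of any level. With 4 libraries, such distances are a description only.

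The scaffold pair was dominated by Smarcc1 (BAF155) over Smarcc2 (BAF170) in all 4 libraries. Smarcc1 had 1086 and 1139 CPM in G784E and 809 and 928 CPM in WT, with both G784E libraries above both WT libraries. Its log2 fold change was 0.36 (SE 0.19, 95% interval -0.04 to 0.76; edgeR, adjusted p = 0.521). Smarcc2 had 81.3 and 73.0 CPM in G784E and 72.8 and 78.8 CPM in WT, and the groups overlapped. The log2 fold change of Smarcc2 was 0.02 (SE 0.20, 95% interval -0.39 to 0.44; edgeR, adjusted p = 1.00). Per kb of exon, Smarcc1 made up 91.1% ± 0.889 of the pair in G784E and 89.0% ± 0.402 in WT (SD, n = 2 each).

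The ratio of Smarcc1 to Smarcc2 was higher in both G784E libraries than in either WT library. As counts, which need no length correction when libraries are compared, it was 13.4 and 15.6 in G784E. The 95% Wilson intervals were 12.2 to 14.6 and 14.4 to 16.9. In WT it was 11.1 and 11.8, with intervals of 10.2 to 12.1 and 10.9 to 12.7. The intervals of G784E replicate 1 and WT replicate 2 overlapped, and such intervals cover counting error only. The mean log2 ratio was 0.34 higher in G784E, a 1.26-fold difference, and the edgeR fit gave a difference of 0.33 with an SE of 0.28. An exact two-sided permutation test over the libraries gave p = 0.333, the smallest that 2 against 2 libraries allow and above 0.05 whatever the values. Between the replicates numbered 1 the difference was 0.27 and between those numbered 2 it was 0.40. It was 0.22 without G784E replicate 2.

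**Figure D3:**
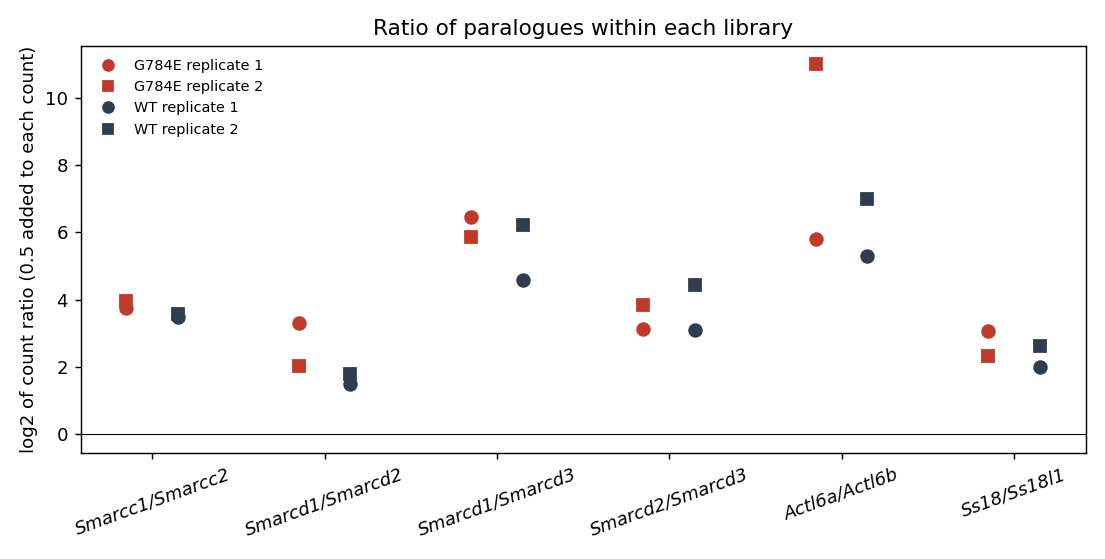
Log2 ratio of the counts of 2 paralogues in each library, with 0.5 added to each count. G784E is left of WT for each pair. The groups separate for Smarcc1/Smarcc2 and Smarcd1/Smarcd2 and overlap for the other 4 pairs. With 2 against 2 libraries, arbitrary labels would separate a pair with a probability of 0.333, and 2 of 6 pairs separated.

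Of the Smarcd adaptors, which link the complex to transcription factors, Smarcd1 (BAF60a) was the highest, then Smarcd2 (BAF60b), with Smarcd3 (BAF60c) near background. Smarcd1 had 136 and 98.6 CPM in G784E and 68.5 and 86.4 CPM in WT. The groups did not overlap, and G784E replicate 1 stood apart as the highest library. The log2 fold change of Smarcd1 was 0.59 (SE 0.22, 95% interval 0.15 to 1.04; edgeR, adjusted p = 0.203). It was 0.99 between the libraries numbered 1 and 0.19 between those numbered 2. Without G784E replicate 2 it was 0.83 and passed (edgeR, adjusted p = 0.00633), and without G784E replicate 1 it was 0.37 (adjusted p = 0.49).

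Smarcd2, known from granulocyte development, had 13.6 and 24.3 CPM in G784E and 24.2 and 25.0 CPM in WT. G784E replicate 1 was low, while replicate 2 lay within the range of WT. The log2 fold change was -0.36 (SE 0.28, 95% interval -0.94 to 0.21; edgeR, adjusted p = 0.751). It was -0.00017 without G784E replicate 1.

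The count ratio of Smarcd1 to Smarcd2 was 10.0 and 4.06 in G784E, against 2.84 and 3.46 in WT. The groups did not overlap, but the G784E libraries differed from each other by more than G784E replicate 2 differed from WT. The mean log2 ratio was 1.02 higher in G784E, 2.03-fold (SD 0.92 in G784E and 0.20 in WT; exact two-sided permutation test, p = 0.333). Between the replicates numbered 1 the difference was 1.81 and between those numbered 2 it was 0.23. Without G784E replicate 1 it was 0.38, and without G784E replicate 2 it was 1.67. Per kb of exon, Smarcd1 made up 89.2% and 77.6% of the 3 adaptors in G784E and 70.1% and 74.9% in WT.

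Smarcd3 had 9 and 14 counts in G784E and 21 and 11 counts in WT, or 1.47 and 1.65 CPM in G784E against 2.77 and 1.12 CPM in WT. The WT libraries enclosed both G784E libraries. Reads in olfactory receptor genes, which ES cells are not known to express, gave a background. Smarcd3 lay below the 95th percentile of these genes per kb of exon in all 4 libraries, at 0.288 and 0.322 CPM per kb in G784E, against percentiles of 0.899 and 0.482. In WT it lay at 0.542 and 0.218 CPM per kb, against 0.856 and 0.310. Smarcd3 was above the mean of the receptor genes in every library, which was 0.195 and 0.0827 CPM per kb in G784E and 0.178 and 0.0554 in WT. On coding length it was above the percentile in replicate 2 of both groups, at 1.14 CPM per kb against 1.07 in G784E and at 0.771 against 0.738 in WT. Its log2 fold change of -0.30 had an SE of 1.13 (edgeR, adjusted p = 0.999). The 95% interval of its fold was 0.16 to 4.08, and changes of either sign within that range could not be told apart. The ratios of Smarcd1 and of Smarcd2 to Smarcd3 overlapped between the groups. Of the stretches of 50 bases in annotated transcripts of Smarcd3, 44.0% also occur in transcripts of Chpf2, so reads of the 2 genes may not have been told apart. No such stretch was shared between any of the 10 genes, so reads of this length do not mix the paralogues.

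Actl6a (BAF53a), the actin-related subunit of proliferating cells, took nearly all counts of its pair. Actl6a had 86.7 and 120 CPM in G784E and 112 and 110 CPM in WT. The G784E libraries lay on either side of the WT libraries. Of the stretches of 50 bases in Actl6a transcripts, 10.1% also occur in other genes, nearly all in Mrpl47. The log2 fold change was -0.10 (SE 0.21, 95% interval -0.53 to 0.33; edgeR, adjusted p = 0.987). Actl6b (BAF53b), its counterpart in neurons, had 9 and 0 counts in G784E and 21 and 8 counts in WT. The libraries numbered 1 held more Actl6b in both groups, and these libraries also held more reads in olfactory receptor genes. Those reads summed to 696 CPM in G784E replicate 1 and 634 CPM in WT replicate 1, against 294 and 197 CPM in replicate 2 of G784E and WT. Actl6b was below the 95th percentile of the receptor genes per kb of exon in all 4 libraries. On the longest transcript and on coding length it was above the percentile in WT replicate 1 alone.

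The count ratio of Actl6a to Actl6b was 58.9 in G784E replicate 1, with a 95% Wilson interval of 30.8 to 113. In G784E replicate 2, without Actl6b counts, it was at least 265 by the Wilson interval or 340 with 3 counts taken as the limit. It was 40.3 and 136 in WT, with intervals of 26.2 to 61.9 and 68.6 to 268, so that the groups overlapped. The fitted log2 fold change of Actl6b was -1.32 with an SE of 1.51 (edgeR, adjusted p = 0.904). The neuron markers, at 457 and 498 CPM in G784E and 267 and 291 CPM in WT, were higher in G784E in sum. Of the 14, 2 (Stmn2 and Ina) passed edgeR's test and 12 did not, beside 2.56% of all tested genes that passed. Their log2 fold changes ran from -1.16 to 1.48. Actl6b did not pass.

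Ss18, the subunit known from the fusion oncoprotein of synovial sarcoma, was higher than Ss18l1, its calcium-responsive paralogue in neurons, in every library. Ss18 had 93.1 and 94.4 CPM in G784E and 83.6 and 96.5 CPM in WT. The WT libraries enclosed both G784E libraries, and the log2 fold change was 0.06 (SE 0.20, 95% interval -0.36 to 0.47; edgeR, adjusted p = 0.999). Ss18l1 had 11.0 and 18.8 CPM in G784E and 21.0 and 15.7 CPM in WT, with a log2 fold change of -0.29 (SE 0.30, 95% interval -0.90 to 0.33; edgeR, adjusted p = 0.88). Like Smarcd2, it was lowest in G784E replicate 1.

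The count ratio of Ss18 to Ss18l1 was 8.49 and 5.01 in G784E and 3.98 and 6.13 in WT, and the groups overlapped. The mean log2 ratio differed by 0.40 (SD 0.54 in G784E and 0.44 in WT; exact two-sided permutation test, p = 0.667). Between the replicates numbered 1 the difference was 1.09 and between those numbered 2 it was -0.29, so its sign was not the same in the pairs. Without G784E replicate 1 it was 0.02. Per kb of exon, Ss18 made up 79.7% and 69.8% of the pair in G784E and 64.7% and 73.9% in WT. Its share rests on a long union of exons, and with the longest transcript in place of the union the log2 level ratio moved to 2.72, from 1.54, in G784E and to 2.36, from 1.18, in WT.

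In order of level per kb of the union of exons, Smarca4 came first and Smarcc1 after it in both groups, as they did on the longest transcript and on coding length. The order further down depended on the length used. Actl6a and Smarcd1 followed, at 26.6 ± 6.06 and 29.1 ± 6.54 CPM per kb in G784E and at 28.5 ± 0.283 and 19.2 ± 3.14 CPM per kb in WT (SD, n = 2 each). These neighbours did not differ beyond their spread in G784E, and in WT Actl6a was the higher. Smarcc2, at 13.9 ± 1.06 and 13.6 ± 0.768 CPM per kb in G784E and WT, stood above Ss18, at 9.95 ± 0.0938 and 9.56 ± 0.966 CPM per kb. On coding length this order was turned round, with Smarcc2 at 21.2 ± 1.61 and 20.8 ± 1.17 CPM per kb in G784E and WT and Ss18 at 74.7 ± 0.704 and 71.8 ± 7.25 CPM per kb, and it was also turned round on the longest transcript. Smarcd2 lay at 5.27 ± 2.11 and 6.85 ± 0.160 CPM per kb in G784E and WT, and Ss18l1 at 3.43 ± 1.28 and 4.23 ± 0.856 CPM per kb. The G784E means did not differ beyond their spread. Within each library Smarcd2 was the higher, at 3.78 and 6.76 against 2.52 and 4.34 CPM per kb in G784E. On coding length the means of these 2 genes did not differ beyond their spread in either group. There Ss18l1 was the higher in both G784E libraries, at 9.09 and 15.6 against 8.53 and 15.2 CPM per kb. The WT libraries differed in this order. Smarcd3 and Actl6b were last and could not be ordered.

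The esBAF paralogues were also set against Smarca4 within each library. The ratio of Smarca4 to Actl6a was 44.6 and 29.8 in G784E counts and 21.7 and 23.2 in WT counts, a mean log2 difference of 0.70 (exact two-sided permutation test, p = 0.333). For Ss18 the ratio was 41.6 and 37.9 in G784E and 29.0 and 26.5 in WT, with a log2 difference of 0.52 and the same p. For Smarcc1 the log2 difference was 0.22. For Smarcd1 the ratio was 28.5 and 36.3 in G784E and 35.4 and 29.5 in WT, and the groups overlapped, with a log2 difference of -0.0069 and an SE from the fit of 0.29.

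Across the other subunits of the complex, 20 of 21 listed genes were tested in edgeR, and 1 passed, beside 2.56% of all tested genes. This was Smarca2, the alternative ATPase gene, at 8.34 and 7.66 CPM in G784E and 41.7 and 40.7 CPM in WT (log2 fold change -2.37, SE 0.26; edgeR, adjusted p = 3.1e-06). The direction of Smarca2 was thus opposite to that of Smarca4, whose own change did not pass edgeR's test with TMM scaling and group alone. Smarcb1 and Smarce1 had log2 fold changes of 0.34 (SE 0.21) and 0.56 (SE 0.23), neither past the test (edgeR, adjusted p = 0.633 and 0.293). The median of the 20 was 0.19. Smarca2 fell together with the primitive endoderm markers, whose median log2 fold change was -3.31, and their part in it was not tested.

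**Figure D4:**
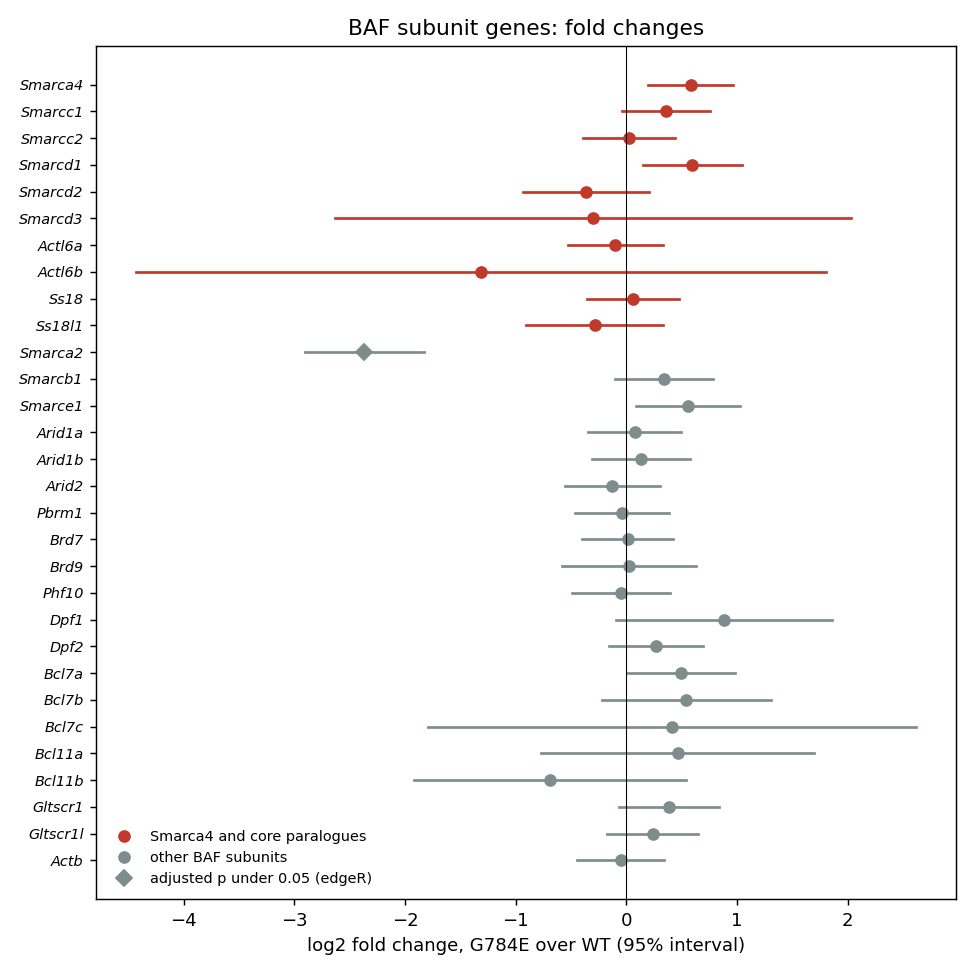
Log2 fold change of G784E over WT with its 95% interval from edgeR, for the 10 genes (red) and the 20 tested other BAF subunits (grey). A diamond marks an adjusted p under 0.05. Smarca2 is the 1 gene past the test, and the intervals of Smarcd3 and Actl6b are the widest of the 10.

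In the GENCODE M21 annotation (GRCm38), Smarca4 and Smarcc1 lie on chromosome 9, Smarcd3 and Actl6b on chromosome 5, and no 2 paralogues of a family share a chromosome. The start regions of the genes differed in base composition. RefSeq promoters (GRCm38.p6) were at hand for 9 of the 10, and the 250 bases before the start were searched for CG. Among 32851 promoters the median was 6 CG. Smarca4 had 25, Smarcc1 21, Smarcc2 40, Smarcd1 29, Smarcd3 38, Actl6a 19, Actl6b 15 and Ss18l1 32. Smarcd2 had 4 and was the 1 of the 9 below the median. Smarcd3, near background, had more CG than Smarcd1 and Smarcd2, and Smarcc2 had more than the higher Smarcc1. In the Actl6 pair the higher Actl6a had more than Actl6b. A link between this count and level was not tested.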

How the data were processed

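Each library has its own table of raw read counts by gene symbol, as deposited by the authors. The submitters' processing notes list CASAVA 1.8.2, Bowtie2 2.1.0, HTSeq, DESeq2 and build mm9. The order of steps, gene annotation and use of strand were not given in the sources used here, so reads of overlapping genes on opposite strands cannot be told apart. Summary rows, 83.3% to 88.7% of all reads, were left out.

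Genes that passed filterByExpr at a minimum count of 10 and a minimum total of 15 were scaled by TMM. They were tested in edgeR 4.0.16 (R 4.3.3) with quasi-likelihood and group alone (2 residual degrees of freedom). This test moderates the spread of a gene towards that of the other genes. Its p-values and intervals thus rest on more than the gene's own spread between libraries. P-values were adjusted over all 15763 genes by Benjamini-Hochberg, with a threshold of 0.05. The SE is the log2 fold change divided by the square root of F. Ratios used counts plus 0.5. Their SE from the fit is the root of the summed squares of the 2 genes' SEs. Lengths came from GENCODE M21 (GRCm38), matched by symbol. That build differs from mm9, and unions of exons include retained introns. The members, lists and tests were chosen with earlier results of these data known. Named were the 10 genes, other BAF subunits past the test, Smarca2, Smarcb1 and Smarce1, and the 5 genes nearest to Smarca4. Alternatives used RLE and upper-quartile scaling, other filters, DESeq2 1.42.0, limma-voom (limma 3.58.1), a replicate block, no Rn45s (10.0% to 16.0% of gene counts), other lengths, and each library left out.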

Additional observations from a re-analysis of the deposited data

How the results depend on the processing

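EdgeR called 298 genes lower and 106 higher, and with a replicate block 658 and 546. Limma-voom gave 186 higher. With 1 library left out, 156 to 532 genes were lower and 29 to 307 higher, where the spread of a lone library is assumed equal to that of the other group. With the block, Smarca4 (log2 fold change 0.58, adjusted p = 1.59e-05), Smarcc1 (0.36, adjusted p = 0.0151) and Smarcd1 (0.58, adjusted p = 0.019) passed in edgeR. These calls stand beside the 658 lower and 546 higher among the 15763 tested genes. Same-numbered libraries deviated together (correlation 0.473 over genes), but 2 pairs do not show that the numbers mark a shared culture. Smarca4 also passed with upper-quartile scaling (0.59), in DESeq2 (0.58) and in limma-voom (0.58). Its log2 fold change was 0.54 to 0.66 with a library left out, with no call. Over the 10 genes, 104 of 119 values under the alternatives kept their direction and side of the threshold, 7 newly passed and 8 changed sign. Smarcd3 and Actl6b, without an adjusted p in DESeq2, were counted there as not passed. Smarcc2 was -0.016 with no filter and -0.0095 without Rn45s. With a library left out, Smarcc2 ran from -0.035 to 0.12, Smarcd3 from -0.82 to 0.48, Actl6a from -0.33 to 0.13, Ss18 from -0.041 to 0.17 and Ss18l1 from -0.72 to 0.059. The difference in log2 ratio ran from -0.059 to 1.56 for Smarcd1/Smarcd3, from -0.94 to 0.39 for Smarcd2/Smarcd3 and from -0.34 to 4.85 for Actl6a/Actl6b. The replicate block left the ratio differences as they were, since they are the means of the 2 pairs, for example 0.34 for Smarcc1/Smarcc2. Under the other lengths and after subtracting the receptor background, no pair of paralogues changed its order in 48 values. The causes were not tested. Depth limits Smarcd3 and Actl6b, with 0 to 21 counts a library.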
